A study of Mus musculus with 32 samples.

Results

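Cytosolic ribosomal protein genes were examined in mouse embryonic brain as a set of 82 protein-coding genes out of 48576 gene identifiers in the deposited tables. Members were chosen by symbol and gene type alone: Rps or Rpl followed by a number, with a short suffix allowed, together with Rpsa, Rplp0, Rplp1 and Rplp2, while the kinases whose symbols start with Rps6k were left out. 32 of the members encode proteins of the small (40S) subunit and 50 encode proteins of the large (60S) subunit or are close paralogues of such genes. The annotation holds 83 genes of this description, and Rpl13 is not analysed here. The values are FPKM, the fragments assigned to a gene per kilobase of transcript, scaled to the mapped fragments of the library. Forebrain (Fb) and midbrain (Mb) tissue was taken from mouse embryos of a B6C3F1-derived hybrid background at embryonic day 9.5, when the neural tube closes. WT is wild type and has 6 libraries per tissue. TKO_Ex is the Cdh6/Cdh8/Cdh11 triple knockout with an open, everted brain (exencephaly) and has 4 libraries per tissue. DKO_Ex, the Cdh8/Cdh11 double knockout with exencephaly, and DKO_CD, labelled as a Cdh6/Cdh8 double knockout with a cranial defect, have 3 libraries per tissue each. The study's methods instead describe the embryos with a cranial defect as Cdh8/Cdh11 double knockouts, so the genotype behind DKO_CD is uncertain. The deposited labels also conflict on which DKO group each DKO library belongs to, so the identity of DKO_Ex is uncertain too. Cdh6, Cdh8 and Cdh11 encode type II cadherins, calcium-dependent cell adhesion proteins. The knockouts are germline CRISPR alleles present in every cell, and the mutant embryos came from intercrosses of triple heterozygotes whereas the WT embryos came from WT matings, so the origin of the embryos and the genotype cannot be told apart.

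Each ribosome carries 1 copy of nearly every ribosomal protein, and cells make these proteins in balanced amounts through nuclear assembly with ribosomal RNA. Their mRNAs start with a C followed by a run of pyrimidines (the 5′ terminal oligopyrimidine, or TOP, motif), through which the mTOR kinase and the RNA-binding protein Larp1 control their translation. Ribosomal protein mRNAs are among the most abundant of growing embryonic tissue, and mice that lack the full dose of single ones are known for skeletal, pigment and blood phenotypes. They are also the mRNAs most often copied back into the mammalian genome, and the resulting processed pseudogenes can be nearly identical to their parents, so that short reads may be assigned to either.

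These near-identical copies bear on the FPKM of many members. A comparison of transcripts (99% identity or more over 100 bases or more) found 218 copies for 64 of the 82 members, 8 of them annotated as protein-coding, and none for 18. The following windows of 30 bases show how little separates Rps25, Rpl29 and Rps3a1 from their most abundant copies. Capitals mark the differing base, and positions count from 1 at the A of the start codon. Rps25 (chr9:44407139-44410427, plus strand, GRCm38) has several exons, and Rps25-ps1 (chr6:145266400-145266777, plus strand) is a processed pseudogene that differs from it at 4 of 378 aligned bases: T6G, G55A, G159A and C188T.
Rps25, positions 41 to 70: agtcggccaaaaagGataaagacccagtaa
Rps25-ps1, same positions: agtcggccaaaaagAataaagacccagtaa
Rps25, positions 174 to 203: ctgtaaggaggttcCgaactataagcttat
Rps25-ps1, same positions: ctgtaaggaggttcTgaactataagcttat
Rpl29 (chr9:106429454-106431568, plus strand) and the processed pseudogene Gm8210 (chr1:43189156-43189638, plus strand) differ at 3 of 483 aligned bases: C72A, C300T and T423C.
Rpl29, positions 286 to 315: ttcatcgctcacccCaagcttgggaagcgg
Gm8210, same positions: ttcatcgctcacccTaagcttgggaagcgg
Rps3a1 (chr3:86137940-86142702, minus strand) and the processed pseudogene Rps3a2 (chr14:88123017-88123808, minus strand) differ at 4 of 792 aligned bases: T216C, T534C, A645T and T668C.
Rps3a1, positions 520 to 549: cgagaggtgcagacTaatgacttgaaggaa
Rps3a2, same positions: cgagaggtgcagacCaatgacttgaaggaa

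Some sequence motifs at annotated starts were more frequent in the members than in all genes, though most member promoters lacked each of them. RefSeq (GRCm38.p6) promoters were found for 62 members, 74 promoters of 300 bases in all. A C followed by at least 4 pyrimidines lay within 5 bases of the start in 31 of them (41.9%), against 18.3% of 32851 promoters of all genes. The sequence CCGGAAG, the core bound by ETS factors, read on either strand (as CTTCCGG on the other), was present in 27 (36.5%), against 8.86% of all promoters. Both are matches of letters and say nothing about use of the sites. The windows below, 15 bases before the annotated start and 15 from it on, come from some members with a tissue difference described further on. Only starts that hold the pyrimidine run are shown, so the windows do not tell how many such members carry it. The C and its run are in capitals.
Rpl18, chr7:45718056-45718085, plus strand: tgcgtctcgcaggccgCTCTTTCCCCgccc
Rpl15, chr14:18270972-18271001, minus strand: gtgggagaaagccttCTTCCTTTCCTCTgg
Rpl12, chr2:32961697-32961726, plus strand: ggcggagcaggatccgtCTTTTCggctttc
Rplp2, chr7:141447636-141447665, plus strand: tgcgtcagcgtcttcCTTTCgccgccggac
Rps9, chr7:3704026-3704055, plus strand: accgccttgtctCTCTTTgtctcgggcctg
Rpl22l1, chr3:28805493-28805522, plus strand: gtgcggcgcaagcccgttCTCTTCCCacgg

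Library facts that touch these genes come first. The depth, estimated from the steps in the low FPKM values, was between 1968000 and 3264000 fragments per library (median 2615000). The forebrain marker list (7 of 7 genes found) summed to between 155 and 215 FPKM in WT Fb and to between 0.952 and 19.8 FPKM in WT Mb, and the midbrain list (7 of 7) to between 8.16 and 12.9 FPKM in WT Fb and between 36.8 and 213 FPKM in WT Mb. WT Mb replicate 5 held both the lowest midbrain sum and the highest forebrain sum of its group. WT Mb replicate 1 and TKO_Ex Fb replicate 1 stood apart in the ribosomal protein genes themselves, and medians that moved by over 1.5 times without one of them are given both ways. For all 12 DKO tables the heading of the value column and the GEO record disagree on which of the 2 DKO groups the library is. Groups follow the headings here, and following the records exchanges the DKO_Ex and DKO_CD values. The knockout alleles are small deletions at the start codon, which a summed transcript level need not show. Cdh6 stood at 2.04 to 3.997 FPKM in WT Fb and 1.04 to 3.55 FPKM in WT Mb, and in TKO_Ex at 0.572 to 3.74 and 0.345 to 3.10 FPKM (Mb median 0.371). In DKO_CD, whose label names Cdh6, it stood at 1.72 to 3.43 FPKM in Fb and 1.29 to 2.11 FPKM in Mb, overlapping WT in both tissues. Cdh8 stood at 0.840 to 1.96 FPKM in WT Fb and 1.14 to 10.1 FPKM in WT Mb. In Fb it lay below WT in DKO_Ex (0.423 to 0.702 FPKM) and overlapped WT in TKO_Ex and DKO_CD, and in Mb the mutant groups (0.851 to 2.49 FPKM) overlapped WT. Cdh11 lay below WT without overlap in TKO_Ex Mb (14.5 to 16.6 against 17.9 to 28.7 FPKM) and DKO_Ex Fb (17.1 to 18.7 against 19.5 to 25.3 FPKM). The methods describe forebrain and midbrain collected separately from dissected embryos, with genotypes checked afterwards on yolk sacs. They do not state outright that each library is a single embryo, so p-values measure the spread between these libraries.

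Ribosomal protein genes were expressed at very high but unequal FPKM. 79 of the 82 members had a mean of at least 1 FPKM and entered the tests. Rpl3l, a muscle paralogue of Rpl3, was listed at 0 in every library, Rpl10l, a testis paralogue of Rpl10, was above 0 in WT Fb replicate 3 alone (0.506 FPKM), and Rpl39l, a testis paralogue of Rpl39, in WT Fb replicate 3 (1.44 FPKM) and TKO_Ex Fb replicate 1 (0.515 FPKM). Over the 12 WT libraries the highest means were those of Rpl41 (8900 FPKM), the smallest ribosomal protein, then Rps26 (5725 FPKM), a protein of the mRNA exit channel, and the small-subunit genes Rps27 (5345 FPKM), Rps28 (5109 FPKM) and Rps21 (4935 FPKM). Rpl41 was the highest member in 32 of 32 libraries. The part of transcript length in this ranking was not tested. At the other end stood, among others, Rpl21 (13.7 FPKM), Rpl10 (58.5 FPKM), Rps3a1 (60.1 FPKM) and Rpl28 (60.7 FPKM), each of them a core component of every ribosome. The coefficient of variation of a member between WT libraries had a median of 10.3% in Fb, where Rplp0 was lowest with 3.53%, and of 15.5% in Mb, where Rps15a was highest with 41.4%.

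Members with low FPKM were, with few exceptions, those whose copies were high. Over the 32 libraries the summed FPKM of the copies exceeded that of the member itself for 22 of the 79 expressed members. Among members under 300 FPKM, a limit chosen after their values were seen, this held for 13 of 14, the exception being Rpl7l1, and among the rest for 9 of 65. Rpl21 averaged 17.0 FPKM and its copies 1889 FPKM. Of these 1889 FPKM, 1214 FPKM came from Gm28900, which matches Rpl21 over 153 bases only. The sums thus add FPKM of whole and partial copies. Rpl28 averaged 63.4 FPKM and its copies 1731 FPKM, and Rps3a1 averaged 54.9 FPKM beside 1063 FPKM for its pseudogene Rps3a2. With each member summed with its copies, the lowest and highest expressed members lay 114-fold apart instead of 516-fold. Whether the copies themselves are transcribed was not tested. Comparisons of levels between these members are therefore uncertain, as are the single values of members such as Rpl21.

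**Figure D1:**
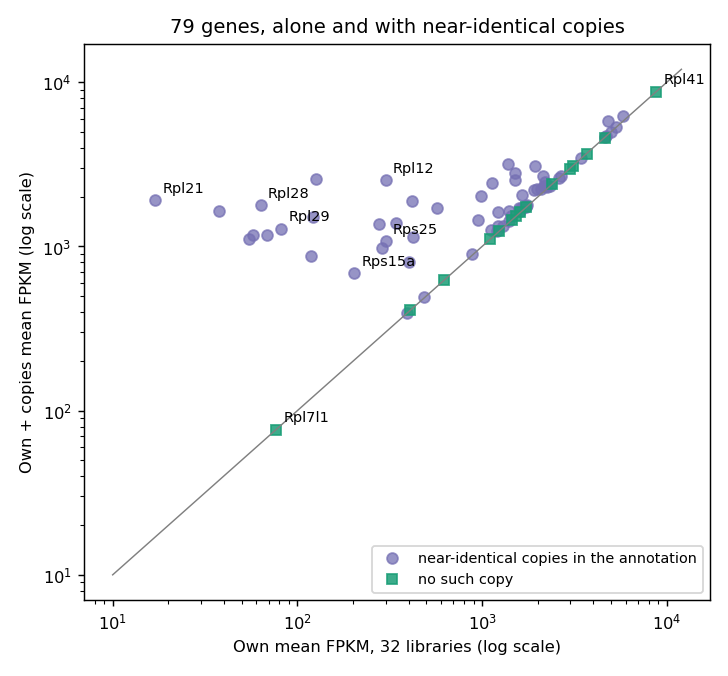
Mean FPKM over the 32 libraries of each of the 79 expressed members alone (horizontal log axis) and summed with its near-identical copies (vertical log axis), 1 point per gene (circles, members with copies; squares, members without). Members without copies lie on the diagonal, and Rpl21, at 17.0 FPKM alone, lies farthest above it.

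The P stalk, through which elongation factors are brought to the ribosome, is made of Rplp0, Rplp1 and Rplp2, none of which has a near-identical copy. In WT Fb they averaged 1346 ± 47.5, 2965 ± 459 and 1930 ± 234 FPKM (SD, n = 6). In WT Mb they averaged 1220 ± 87.1, 2457 ± 340 and 1630 ± 171 FPKM (SD, n = 6). Rplp0 was the lowest of the 3 in both tissues. Rplp0 anchors pairs of the small acidic proteins Rplp1 and Rplp2.

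Among paralogues expressed beside their parent gene, Rpl22l1 was the closest to its parent in level. Rpl22l1, which can take the place of Rpl22 in the ribosome, stood at between 24.3% and 58.7% of the FPKM of Rpl22 over the 32 libraries. Its share averaged 36.9% ± 7.28 in WT Fb and 34.4% ± 5.596 in WT Mb (SD, n = 6), with ranges that overlapped. Rps27l, known as a p53 target, stood at between 9.35% and 15.6% of Rps27. Rpl7l1, a nucleolar relative of Rpl7 that acts in 60S assembly, stood at between 4.95% and 7.15% of Rpl7.

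**Figure D2:**
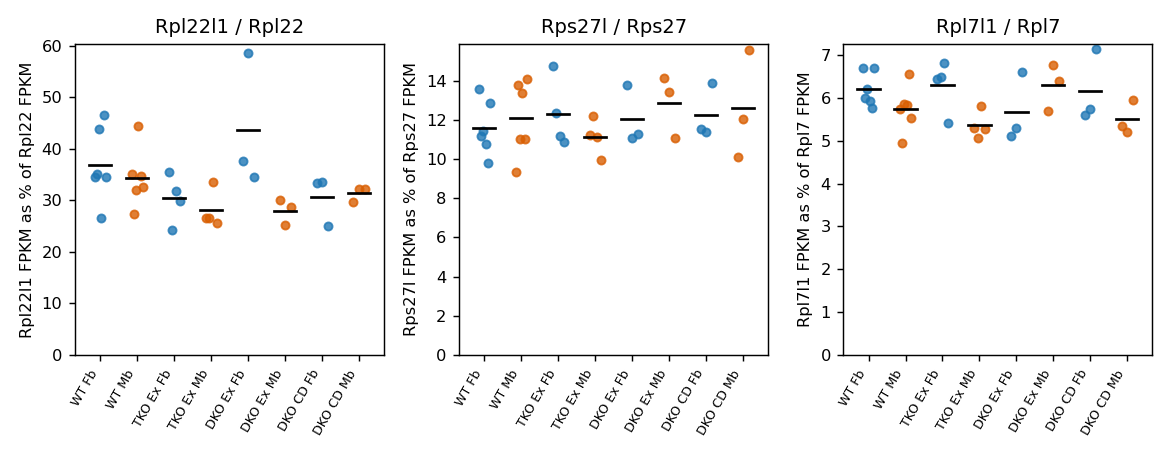
FPKM of the paralogue as a percent of its parent gene in each library by group, for Rpl22l1, Rps27l and Rpl7l1 in separate panels (points are libraries, blue for Fb and orange for Mb, and the black line is the group mean; vertical axes in percent). Rpl22l1 lies between 24.3% and 58.7% of Rpl22, Rps27l between 9.35% and 15.6% of Rps27 and Rpl7l1 between 4.95% and 7.15% of Rpl7.

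Added up, the members held between 13.7% and 21.9% of the FPKM of a library. The sum was 148130 ± 13362 FPKM in WT Fb (SD, n = 6) and 122010 ± 19846 FPKM in WT Mb (SD, n = 6), a ratio of Mb to Fb of 0.824. WT Mb replicate 1 reached 160092 FPKM, whereas the other 5 WT Mb libraries lay between 103530 and 121942 FPKM, under the lowest WT Fb library at 132344 FPKM. TKO_Ex Fb replicate 1 was the lowest of the 32 at 89082 FPKM, and the other TKO_Ex Fb libraries stood at 125034, 146403 and 146802 FPKM. These libraries differed from the rest of their groups in opposite directions. TKO_Ex Mb lay between 124804 and 144949 FPKM, DKO_Ex Fb between 134245 and 147006, DKO_Ex Mb between 105290 and 129357, DKO_CD Fb between 132939 and 141792, and DKO_CD Mb between 125628 and 133615. In bulk tissue fewer cells of a type and less RNA per cell cannot be told apart. TKO_Ex Fb replicate 1 was the deepest library (3264000 fragments), and TKO_Ex Mb was the shallowest group, at 1968000 to 2347000 fragments. The part of depth in these sums was not tested.

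**Figure D3:**
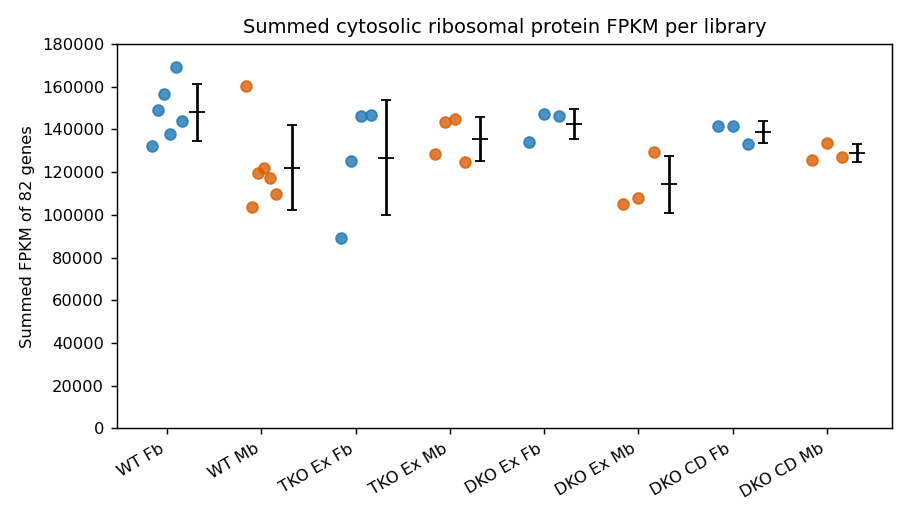
Summed FPKM of the 82 genes in each library (vertical axis, FPKM; points are libraries; blue, Fb; orange, Mb; the bars are the group mean ± SD). WT Mb replicate 1 (160092 FPKM) lies above the other 5 WT Mb libraries, and TKO_Ex Fb replicate 1 (89082 FPKM) below all others.

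In the WT brain, ribosomal protein genes stood lower in Mb than in Fb. The difference (Mb minus Fb, on the log2(FPKM + 1) scale throughout) was below 0 for 78 of 79 members, with a median of -0.27, where the median of all 13344 genes tested was -0.00 and 50.6% of them were below 0. By limma with Benjamini-Hochberg adjustment over all genes, 6 members (7.59%) fell in Mb and none rose. With the replicate number as a block, with no filter on low FPKM or without a trend, Rpl18 alone was called (adjusted p from 0.0137 to 0.024), and the others named in the next paragraphs had adjusted p from 0.0627 to 0.134. Of all genes 8.26% were called in this comparison, 3.60% as lower. At an unadjusted p under 0.05 the shares were 58 of 79 members (73.4%) and 20.9% of all genes. Small- and large-subunit members had the same median, -0.27.

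Rpl18, a large-subunit protein mutated in Diamond-Blackfan anaemia, showed the clearest tissue difference in WT. Its FPKM ran from 481 to 622 in WT Fb (median 523) and from 355 to 472 in WT Mb (median 411). The groups did not overlap, which was true of no other member and of 2.23% of all genes in the lower direction. The log2 difference was -0.40 (SE 0.09, limma adjusted p = 0.00956). Rpl18 was not called over all groups, where its median was 431 FPKM (255 to 622) in Fb and 397 FPKM (297 to 479) in Mb. In TKO_Ex it stood at 255, 397, 325 and 341 FPKM in Fb and at 348, 479, 381 and 297 FPKM in Mb. In both DKO groups the tissues overlapped. The FPKM of Rpl18 is uncertain in level, since its 3 copies averaged 727 FPKM beside 422 FPKM for the gene.

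Rpl22, without a near-identical copy, fell as well. Rpl22, whose protein also binds RNA outside the ribosome, ran from 1421 to 1703 FPKM in WT Fb (median 1596) and from 1193 to 1623 FPKM in WT Mb (median 1237), a log2 difference of -0.30 (SE 0.08, adjusted p = 0.0308). Its highest Mb library reached into the Fb range. A further 3 large-subunit genes fell. Rpl8, which lies beside the peptidyl transferase centre, ran from 2278 to 2537 FPKM in Fb (median 2352) and from 1662 to 2346 FPKM in Mb (median 2001), with adjusted p = 0.0308. Rpl15 ran from 921 to 1131 FPKM in Fb (median 1047) and from 736 to 949 FPKM in Mb (median 864), with adjusted p = 0.0415. Rpl37 ran from 865 to 1197 FPKM in Fb (median 1033) and from 683 to 1101 FPKM in Mb (median 726), with adjusted p = 0.0468. Their log2 differences were -0.28 (SE 0.07), -0.27 (SE 0.07) and -0.41 (SE 0.12), with overlapping groups.

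The members farthest below 0 did not pass the test. Rps15a, of the small subunit, differed by -0.70 (SE 0.27, adjusted p = 0.158), Rpl35a by -0.51 (SE 0.16, adjusted p = 0.0815) and Rpl38, known in mice for the tail-short skeletal phenotype, by -0.46 (SE 0.15, adjusted p = 0.0854). Rpl9 was the 1 member above 0, at 0.27 (SE 0.18, adjusted p = 0.454), and its copies averaged 1381 FPKM beside 122 FPKM for the gene. Of the P stalk, Rplp0 differed by -0.14, Rplp1 by -0.27 and Rplp2 by -0.24, none past the threshold. Members without copies had the same median (-0.27 over 15 members, 1 called) as members with copies (-0.27 over 64 members, 5 called).

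The number of WT calls rested heavily on single libraries. Without WT Mb replicate 1, 47 members fell and the median was -0.32. Without both WT Mb replicates 1 and 5, 40 fell. Without WT Fb replicate 3, 1 member fell. The paired Mb to Fb ratios of the summed FPKM were 1.21 for the WT libraries numbered 1 and between 0.692 and 0.886 for the 5 other numbers. Other short transcripts moved with the members: 252 other genes of 800 bases or less and at least 10 FPKM had a median difference of -0.19, and the 239 of them that are neither globin genes nor encoded in mitochondrial DNA summed to 46878 ± 3908 FPKM in WT Fb and 40103 ± 5018 FPKM in WT Mb (SD, n = 6). With the trend of log2 FPKM on transcript length removed the median of the members was -0.12 with 3 called. Tissue content differed too. The mesenchyme list (7 of 8 genes found) summed to 201 to 233 FPKM in WT Fb and 111 to 206 FPKM in WT Mb. The surface ectoderm list (6 of 6) summed to 55.8 to 93.0 FPKM in WT Fb and 26.3 to 41.3 FPKM in WT Mb, the neuroepithelium list (7 of 7) to 353 to 491 FPKM and 556 to 734 FPKM, the neuron list (4 of 5) to 5.48 to 14.1 FPKM and 32.002 to 67.2 FPKM. Ranges overlapped for the neural crest list (4 of 4, 21.3 to 32.04 FPKM and 16.7 to 26.8 FPKM), the endothelium list (5 of 5, 24.4 to 35.1 FPKM and 22.6 to 40.2 FPKM) and the primitive red cell list (6 of 6), which was the most abundant at 2652 to 23520 FPKM and 5218 to 23391 FPKM. No gene of these lists was at 0 in every library. The part of transcript length and of cell content in the difference was not tested.

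Over all 4 groups together, with the group as a covariate (16 libraries per tissue, the WT libraries among them), 77 of 79 members were below 0 and the median was -0.14. TKO_Ex did not share the fall in the summed FPKM of the members. The sum averaged 126830 ± 27142 in TKO_Ex Fb and 135420 ± 10246 in TKO_Ex Mb (SD, n = 4, medians 135720 and 135960). In DKO_Ex it averaged 142460 in Fb and 114200 in Mb, and in DKO_CD 138720 and 128800. 15 members (19.0%) fell in Mb and none rose, against 17.0% of all 13441 genes called and 7.93% called lower, and 42 members (53.2%) against 27.4% of all genes had an unadjusted p under 0.05. Rpl8 was the one member called in both comparisons: its FPKM had a median of 2273 (1816 to 2537) in Fb and 2000 (1662 to 2346) in Mb, a log2 difference of -0.19 (SE 0.04, limma adjusted p = 0.00099). Of the P stalk and its base, Rplp0 fell by 0.14 on the log2 scale (adjusted p = 0.00385), Rplp2 by 0.20 (adjusted p = 0.0126) and Rpl12, which sits where the stalk joins the subunit, by 0.20 (adjusted p = 0.00878). Rplp0 had a median of 1336 FPKM (1146 to 1401) in Fb and 1192 FPKM (1054 to 1316) in Mb. Rplp2 had a median of 1825 FPKM (1391 to 2345) in Fb and 1591 FPKM (1326 to 1919) in Mb, and Rpl12 of 329 FPKM (250.1 to 382) and 277 FPKM (226 to 333). In these 4 genes the tissues overlapped, and the 7 copies of Rpl12 averaged 2240 FPKM beside 301 FPKM for the gene.

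The other 11 called members came from both subunits. Rpl5 fell by 0.11 on the log2 scale (adjusted p = 0.0341). It forms the 5S ribonucleoprotein with Rpl11 and holds Mdm2 in check when ribosome assembly fails. The paralogues Rpl22l1 (-0.30, adjusted p = 0.0372) and Rpl7l1 (-0.18, adjusted p = 0.0131) fell. Rpl22l1 had a median of 517 FPKM (350 to 849) in Fb and 420 FPKM (308 to 569) in Mb, with wide overlap. Rpl36 (-0.27, adjusted p = 0.0261), Rpl17 (-0.22, adjusted p = 0.00998), Rpl27 (-0.21, adjusted p = 0.0432), Rpl10a (-0.11, adjusted p = 0.0454), Rpl19 (-0.11, adjusted p = 0.0439) and Rpl3 (-0.10, adjusted p = 0.0226) are further large-subunit genes. Rps14, the gene of the 5q- syndrome, fell by 0.25 (adjusted p = 0.0466), and Rps9, of the mRNA entry channel, by 0.16 (adjusted p = 0.0465). The lowest member not called was Rpl35a at -0.28 (adjusted p = 0.119), and the 2 members above 0 were Rpl9 at 0.12 and Rpl28 at 0.00. Without TKO_Ex Fb replicate 1 the count was 53, and without WT Fb replicate 3 it was 8.

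Other genes of protein synthesis were read out from lists chosen by function. Of 21 further genes whose mRNAs carry the TOP motif (translation factors and partners), 2 fell in WT Mb (9.52%, against 3.60% of all genes) and none rose, with a median of -0.11. They were Fau (-0.33, adjusted p = 0.0473), which encodes a ribosomal protein fused to a ubiquitin-like domain, and Eef1d (-0.33, adjusted p = 0.0057), an exchange factor of elongation factor 1. Of 34 ribosome biogenesis genes, 4 fell (11.8%): Nle1 (-0.55), Ncl (-0.43), the most abundant nucleolar protein, and Nop56 (-0.25) and Fbl (-0.29), which belong to the box C/D methylation complexes. Their median was -0.18. None of 10 genes of ribosomal RNA transcription passed in WT. Over all groups, 8 TOP genes (38.1%) and 9 biogenesis genes (26.5%) fell, against 7.93% of all genes, and in the transcription list Polr1e fell (-0.41, adjusted p = 0.0413) and Taf1b rose (0.32, adjusted p = 0.046). Of 78 mitochondrial ribosomal protein genes, 3 fell in WT Mb (3.85%, near the 3.60% of all genes), the largest fall being that of Mrpl34 (-0.56, adjusted p = 0.00123), with 68 below 0 and a median of -0.16, and 6 fell over all groups (7.69% against 7.93%).

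Among 15 regulators of ribosomal protein synthesis the calls went both ways in WT. Mycl, a Myc family transcription factor, rose in Mb, from 19.8 ± 2.47 FPKM in Fb to 51.0 ± 4.77 FPKM in Mb (SD, n = 6, log2 difference 1.33, adjusted p = 9.62e-07), and the cell cycle inhibitor Cdkn1a rose (1.31, adjusted p = 0.0158). Myc, which drives ribosomal protein gene transcription, fell from 33.2 ± 5.46 to 21.8 ± 5.80 FPKM (-0.61, adjusted p = 0.0465). Eif4ebp1, the translation repressor that mTOR inactivates, fell from 40.9 ± 5.65 to 23.8 ± 5.43 FPKM (-0.78, adjusted p = 0.00277). The same 4 genes passed with the same signs over all groups. Of 262 pseudogenes named after a member, 79 were expressed in the WT libraries, and 1 rose in Mb while 7 fell (8.86% against 3.60% of all genes), the largest fall being that of Rpl27a-ps1 (-1.09, adjusted p = 0.00515).

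In no mutant group did a member pass the test against WT of the same tissue. In Mb, limma called 0 members in TKO_Ex, DKO_Ex and DKO_CD, where 0.0898%, 0.0903% and 0.0375% of all genes were called. At an unadjusted p under 0.05 there were 9 members in TKO_Ex Mb (11.4%, against 8.38% of all genes), 2 in DKO_Ex Mb (2.53% against 5.46%) and 4 in DKO_CD Mb (5.06% against 6.69%). The medians were 0.10, -0.06 and 0.08, and without WT Mb replicate 1 they were 0.17, -0.0035 and 0.15. Without DKO_Ex Mb replicate 3 the DKO_Ex Mb median was -0.15, and without WT Mb replicate 2 the DKO_CD Mb median was 0.035. RNA encoded in mitochondrial DNA summed to 50913 to 54932 FPKM in TKO_Ex Mb, above the 32701 to 41811 FPKM of WT Mb, and its part in the differences was not tested. The 3 comparisons share the 6 WT Mb libraries.

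**Figure D4:**
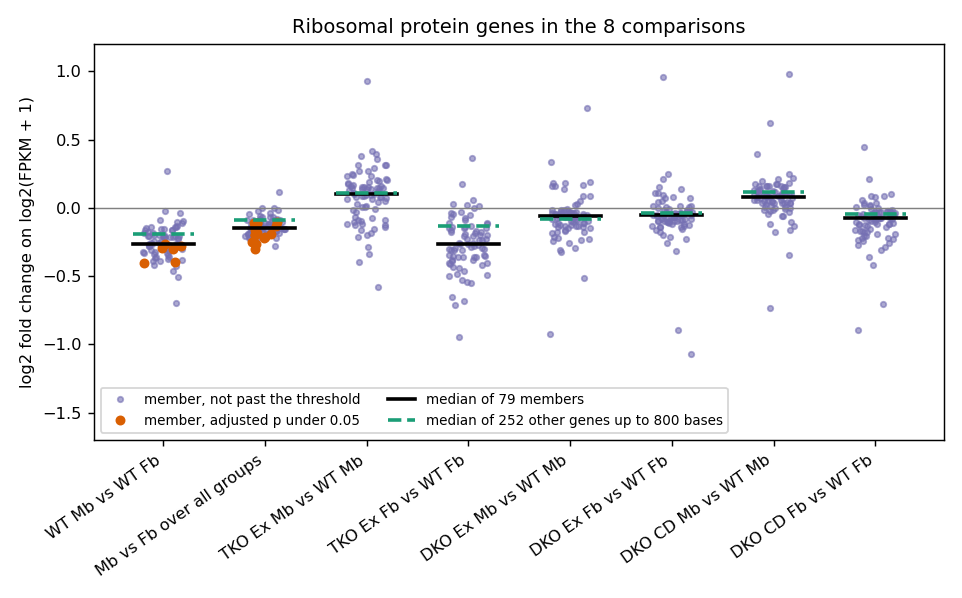
Log2 differences on the log2(FPKM + 1) scale of the 79 expressed members in 8 comparisons, 1 point per gene, with the median of the members (solid line) and that of 252 other genes of 800 bases or less (dashed line). The members lie below 0 in WT Mb against WT Fb (median -0.27) and in TKO_Ex Fb against WT Fb (median -0.26), and the 3 mutant groups share their WT libraries within each tissue.

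In the Mb of the mutants the extremes of the set were mostly members with abundant copies. In TKO_Ex Mb the lowest were Rpl29 (-0.58, SE 0.68), Rps25 (-0.39, SE 0.18) and Rpl9 (-0.34, SE 0.19), and the highest were Rps15a (0.93, SE 0.35), Rps26 (0.41, SE 0.14) and Rpl38 (0.39, SE 0.17). In DKO_Ex Mb the lowest were Rps25 (-0.92, SE 0.18), Rpl29 (-0.51, SE 0.29) and Rps19 (-0.32, SE 0.20), the first gene found mutated in Diamond-Blackfan anaemia, and the highest were among others Rpl21 (0.73, SE 0.25) and Rps15a (0.19, SE 0.38). In DKO_CD Mb the lowest were Rps25 (-0.74, SE 0.18), Rpl9 (-0.35, SE 0.28) and Rpl27a (-0.17, SE 0.14), and the highest were Rps15a (0.98, SE 0.39), Rpl29 (0.62, SE 0.26) and Rplp1 (0.39, SE 0.12). The lowest adjusted p among the members was 0.329 (Rps24), 0.193 (Rps25) and 0.441 (Rps25) in the 3 comparisons. Without WT Mb replicate 1, Rps26 rose in TKO_Ex Mb (0.52, adjusted p = 0.041). Rps25 did not overlap WT in DKO_Ex Mb and in DKO_CD Mb, and Rpl29 did not overlap in DKO_CD Mb. Of all genes, 0.993% and 1.14% did not overlap in the lower direction in these 2 comparisons, and 2.24% in the higher direction in DKO_CD Mb.

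In Fb, limma called 0 members in TKO_Ex, DKO_Ex and DKO_CD, where 0.0603%, 0.0759% and 0.0378% of all genes were called. At an unadjusted p under 0.05 there were 29 members in TKO_Ex Fb (36.7%, against 8.66% of all genes), 7 in DKO_Ex Fb (8.86% against 7.01%) and 12 in DKO_CD Fb (15.2% against 8.44%). TKO_Ex Fb had the lowest median, -0.26, with 73 of 79 members below 0. The medians were -0.06 in DKO_Ex Fb and -0.08 in DKO_CD Fb. Without TKO_Ex Fb replicate 1 the TKO_Ex Fb median was -0.13. The 239 other short genes named above had a median of -0.13 with that library and of -0.02 without it. The mesenchyme list summed to 137 to 188 FPKM in TKO_Ex Fb, below the 201 to 233 FPKM of WT Fb, and the surface ectoderm list to 86.02 to 219.8 FPKM, beside 55.8 to 93.0 FPKM. RNA encoded in mitochondrial DNA summed to 37982 to 53159 FPKM, beside 29840 to 41541 FPKM. The part of these in the difference was not tested.

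The Fb comparisons share the WT Fb libraries with each other and with the WT tissue comparison. Rpl18 was among the lowest members in TKO_Ex Fb. Its 4 libraries stood at 255, 397, 325 and 341 FPKM, below the 481 to 622 FPKM of WT Fb, a log2 difference of -0.71 (SE 0.12, adjusted p = 0.104). With the 4 groups of Fb in one fit Rpl18 passed the test (adjusted p = 0.0466). Beside it, Rps25 (-0.95, SE 0.27) and Rps19 (-0.68, SE 0.20) were the lowest, and Rps15a (0.37), Rpl21 (0.17) and Rps24 (0.06) the highest. 7 members, among them Rpl18, Rpl11, Rpl6, Rpl7a, Rps16 and Rps4x, did not overlap WT Fb, each of them lower, as were 0.814% of all genes. In DKO_Ex Fb the lowest were Rps15a (-1.07, SE 0.43), Rps25 (-0.89, SE 0.14) and Rps3a1 (-0.32, SE 0.10), and the highest were Rpl21 (0.96, SE 0.20), Rps24 (0.25, SE 0.14) and Rplp1 (0.21, SE 0.13). 5 members lay below WT Fb without overlap (Rps25, Rps3a1, Rps9, Rpl19 and Rpl24), against 2.25% of all genes, and Rpl21 lay above it, against 1.46%. In DKO_CD Fb the lowest included Rps25 (-0.89, SE 0.13) and Rps3a1 (-0.42, SE 0.14), and the highest were Rpl29 (0.45, SE 0.29), Rplp1 (0.21, SE 0.12) and Rpl21 (0.10, SE 0.22). 8 members lay below WT Fb without overlap (Rps25, Rps3a1, Rpl18, Rps9, Rpl30, Rpl23, Rpl8 and Rpl19), against 1.30% of all genes.

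Whether the difference between mutant and WT itself differed between Mb and Fb was tested as an interaction. No member passed, and 0.0149%, 0% and 0.00746% of all genes did for TKO_Ex, DKO_Ex and DKO_CD. For TKO_Ex the interaction was above 0 for 76 of 79 members with a median of 0.34, where the median of all genes was -0.00, and 31 members (39.2%) had an unadjusted p under 0.05, against 6.50% of all genes. The 252 other short genes had a median of 0.26. Rpl35a (0.76, SE 0.33), Rpl38 (0.74, SE 0.28) and Rps29 (0.69, SE 0.29) were highest, with adjusted p from 0.734 to 0.745, and Rpl9 (-0.29), Rps2 (-0.09) and Rpsa (-0.01) were the 3 below 0. The median was 0.21 without TKO_Ex Fb replicate 1 and 0.43 without TKO_Ex Fb replicate 4. For DKO_Ex the median was -0.02 (0.059 without WT Mb replicate 1 and -0.10 without DKO_Ex Mb replicate 3) with 0 members at an unadjusted p under 0.05 (3.88% of all genes), from Rps19 (-0.36), Rpl22l1 (-0.32) and Rpl27a (-0.28) to Rps3a1 (0.30) and Rps15a (1.26, adjusted p = 1). For DKO_CD the median was 0.17 with 3 members at an unadjusted p under 0.05 (4.83% of all genes), from Rpl9 (-0.26), Rpsa (-0.05) and Rpl7a (-0.03) to Rpl28 (0.43) and Rps15a (1.22, adjusted p = 0.99).

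Rps25, a small-subunit protein needed for initiation at several viral internal ribosome entry sites, was low in the mutant libraries and its pseudogene was high. In WT Fb Rps25 stood at 356 to 537 FPKM (median 426) and in WT Mb at 291 to 531 FPKM (median 349). DKO_Ex held 220, 271 and 213 FPKM in Fb and 198, 166 and 211 FPKM in Mb, and DKO_CD held 239, 222 and 239 FPKM in Fb and 220, 237 and 197 FPKM in Mb. Each of these 12 libraries was below every WT library. TKO_Ex held 113, 213, 380 and 279 FPKM in Fb and 232, 265, 373 and 252 FPKM in Mb, which overlapped WT. Adjusted p was 0.0661 in DKO_Ex Fb and 0.0588 in DKO_CD Fb. Under some other scalings Rps25 passed: with the trend on transcript length removed it fell in DKO_Ex Mb (adjusted p = 0.0404), DKO_Ex Fb (adjusted p = 0.045) and DKO_CD Fb (adjusted p = 0.0268). Rps25-ps1, which differs from Rps25 at the bases shown above, stood between 318 and 747 FPKM in the 12 WT libraries and between 681 and 985 FPKM in the 20 mutant libraries. In WT Fb replicates 1 to 6 it stood at 364, 417, 446, 747, 721 and 618 FPKM, and in WT Mb at 318 to 521 FPKM. The WT Fb and mutant ranges therefore overlapped.

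Summed with its copies, Rps25 did not lie below WT. The share of the sum carried by Rps25 was 29.96% to 49.4% in WT and 12.99% to 31.2% in the mutants. The log2 difference from WT of Rps25 plus its copies was 0.47, 0.13 and 0.28 in TKO_Ex, DKO_Ex and DKO_CD Mb and 0.07, -0.00 and 0.03 in the same groups of Fb, none past the threshold. The coefficient of variation over the 32 libraries was 35.9% for Rps25 alone and 13.4% for the sum. In TKO_Ex Mb the sum lay between 1194 and 1311 FPKM, above the 822 to 1107 FPKM of WT Mb. The source of the lower share of Rps25 was not tested. The mutant embryos and the WT embryos came from different matings.

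Rpl29, a large-subunit protein whose loss makes mice small, varied between pairs of libraries that carry the same number and much less within them. In WT, Fb replicates 1 to 6 stood at 59.6, 48.2, 98.6, 62.1, 114 and 127 FPKM and Mb replicates 1 to 6 at 65.8, 44.8, 79.7, 58.9, 107 and 110 FPKM. In TKO_Ex, Fb held 5.90, 113, 122 and 69.8 FPKM and Mb held 6.14, 122, 112 and 63.2 FPKM, so replicate 1 was far below the others in both tissues. DKO_CD held 106, 107 and 114 FPKM in Fb and 114, 116 and 114 FPKM in Mb, and DKO_Ex held 63.6, 79.7 and 58.0 FPKM in Fb and 51.0, 37.5 and 70.9 FPKM in Mb. The SD between pairs (log2 scale) was 6.85 times that within pairs, the highest ratio of the 79 members. The next were Rpl21 (2.40) and Rpl26 (2.33), and the median was 0.992. The labels do not say that equal numbers mark the same embryo. Over all libraries Rpl29 averaged 81.9 FPKM, its copies Gm8210 and Gm15454 averaged 760 and 413 FPKM, and Rpl29 with its copies stayed between 995 and 1581 FPKM. Its coefficient of variation was 41.3% alone and 10.8% with the copies.

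**Figure D5:**
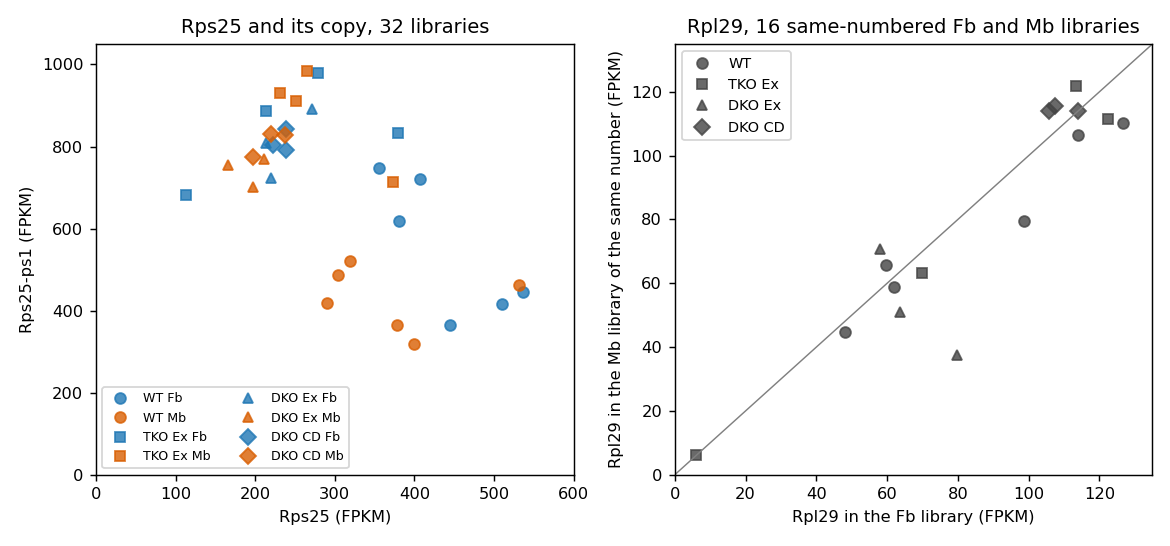
Left, FPKM of Rps25 (horizontal axis) against FPKM of its pseudogene Rps25-ps1 (vertical axis) in each of the 32 libraries; the 12 DKO libraries lie to the left of every WT library (circles). Right, FPKM of Rpl29 in the Fb library against the Mb library of the same number for 16 pairs, with the line of equality; TKO_Ex replicate 1 lies near 6 FPKM on both axes.

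Rps15a and Rpl21, which also have near-identical copies, gave the remaining wide differences. Rps15a ran from 177 to 309 FPKM in WT Fb and from 57.5 to 211 FPKM in WT Mb. Single libraries set its extremes: DKO_Ex Fb replicate 3 stood at 36.0 FPKM beside 148 and 187 FPKM, TKO_Ex Mb replicate 3 at 413 FPKM beside 186 to 260 FPKM, and DKO_CD Mb replicate 1 at 382 FPKM beside 182 and 248 FPKM. Its 1 copy, Rps15a-ps7, averaged 488 FPKM beside 203 FPKM for the gene. Rpl21 stood at 25.3, 27.6 and 28.9 FPKM in DKO_Ex Fb, above the 9.88 to 20.8 FPKM of WT Fb (log2 difference 0.96, adjusted p = 0.233). Summed with its copies, Rpl21 differed from WT Fb by -0.46 in the same libraries (adjusted p = 0.289), the opposite sign. Neither value passed the test. The partial copy Gm28900, which matches Rpl21 over 153 bases, averaged 1214 FPKM and made up most of the sum.

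The other lists gave no calls in the 6 mutant comparisons except among the pseudogenes. No gene of the TOP, biogenesis, ribosomal RNA transcription, regulator and mitochondrial lists passed by limma, with 0 to 11 genes per list and comparison at an unadjusted p under 0.05. Eif4ebp1 was the highest regulator in the 3 Mb comparisons, at 0.44 in TKO_Ex, 0.52 in DKO_Ex and 0.26 in DKO_CD, with adjusted p from 0.493 to 0.873. Of the pseudogenes, 4 of 82 tested rose in TKO_Ex Mb, where 0.0898% of all genes were called. Rpl3-ps1 fell in DKO_Ex Mb (-2.08, adjusted p = 0.0103) and in DKO_Ex Fb (-2.24, adjusted p = 0.00712). It was the 1 call among 79 tested (1.27%, against 0.0903% of all genes) and among 81 tested (1.23% against 0.0759%). In DKO_CD Fb 1 of 81 fell (1.23% against 0.0378%).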

How the data were processed

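The 32 deposited tables hold FPKM, 1 library each. Per the authors' methods, FPKM came from Cufflinks after alignment of strand-specific reads with TopHat2 (build GRCm38). Versions and gene models are not given in the sources used here. Members, gene lists and tests were chosen with earlier results of these data known. Identifiers were joined to GENCODE M21, and 65 repeated rows of an identifier were summed. Because FPKM are not counts, log2(FPKM + 1) was tested with limma 3.58.1 (R 4.3.3; lmFit, eBayes with a trend) keeping genes that averaged 1 FPKM or more across the libraries of a fit, with Benjamini-Hochberg adjustment over all genes at 0.05. There were 11 comparisons: WT Mb with WT Fb, Mb with Fb over all groups, each mutant with WT in each tissue, and 3 interactions. The script was tested on simulated data.

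Genes named are every member past the threshold in a comparison, the 3 largest rises and falls of each comparison, the 5 highest and 5 lowest members in WT, the paralogues with their parents and the P stalk, and from other lists the called genes or the largest rise and fall. Some genes that this rule names are not reported here. Members discussed for overlap with WT or for their copies were chosen after their values were seen. Near-identical copies were found with blastn 2.17.0+ between annotated transcripts (100 bases, 99% identity). Relative depth came from 771 genes with 1 transcript each and from the steps of their low FPKM, of which 76.7% to 85.0% were whole fragments within 0.1, so depth is an estimate and FPKM give no counting interval. The cell type lists were forebrain, midbrain, mesenchyme, surface ectoderm, neuroepithelium, neurons, neural crest, endothelium and primitive red cells. Alternatives were pseudocounts of 0.1 and 5, no filter, no trend, rescaling, quantile and median-of-ratios scaling, a joint fit of the groups, blocking on the replicate number, the DKO grouping of the records, and each library left out. Added after seeing the data were the removal of a length trend, members summed with copies, and leaving out WT Mb replicates 1 and 5 together.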

Additional observations from a re-analysis of the deposited data

Results flagged for a closer look

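Of 191 groups of 4 or 6 libraries examined (each member named here in each such group, and the summed FPKM), 14 had a library far from the others by Dixon's criterion, where chance marks about 1 in 20 groups. 9 of the 14 were WT Mb replicate 1, on the high side. Its summed FPKM of the members was 160090, beside 103530 to 121940 in the other 5 libraries. In the same library Rpl41 stood at 11278 FPKM (others 6991 to 7785), Rpl38 at 6136 FPKM (2919 to 3924), Rps21 at 6571 FPKM (2990 to 4303) and Rps28 at 6532 FPKM (3418 to 4373). Rpl36 stood at 2989 FPKM (1673 to 1990), Rpl22 at 1623 FPKM (1193 to 1290.3), Rpl37 at 1101 FPKM (683 to 776) and Rpl27a at 175 FPKM (113 to 128).

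Rpl5, the partner of 5S ribosomal RNA, was low in WT Fb replicate 4 at 392 FPKM (others 425 to 445) and high in TKO_Ex Mb replicate 2 at 411 FPKM (others 366 to 373). The remaining 3 concern paralogues listed at 0 elsewhere in the group: Rpl10l at 0.506 FPKM and Rpl39l at 1.44 FPKM in WT Fb replicate 3, and Rpl39l at 0.515 FPKM in TKO_Ex Fb replicate 1.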

How the results depend on the processing

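In 277 of 283 refits the medians of the members moved by less than the SD between libraries of their median level. That SD was 0.0685 to 0.169 on the log2 scale. In most mutant comparisons with WT it exceeded the median itself, so staying within it does not show a stable median. The medians took the other sign in 16 refits, of which 9 were the DKO_Ex interaction (-0.103 to 0.0586 with 1 library left out). The summed FPKM ratios moved by less than the spread between libraries in 28 of 28. The count of members called for WT Mb against WT Fb, 6 in the report, was 1 with no filter, 1 without a trend, 1 with the replicate block, 2 after quantile normalization (median -0.11), 3 with the length trend removed (median -0.12) and 40 without WT Mb replicates 1 and 5, and leaving out 1 library gave 1 to 47. Over all groups, 15 in the report, it was 9 with no filter, 9 rescaled to a fixed sum, 8 after quantile normalization, 8 without a trend and 7 with the length trend removed, and leaving out 1 library gave 8 to 53. Against WT, the count went from 0 to 2 in TKO_Ex Mb without WT Mb replicates 1 and 5, and from 0 to 1 in DKO_Ex Mb (Rps25, quantile or length trend removed), TKO_Ex Fb (Rpl18, 4 groups in one fit), DKO_Ex Fb (Rps25, length trend removed) and DKO_CD Fb (Rps25, median-of-ratios, quantile or length trend removed). Leaving out 1 library gave 0 to 1 in TKO_Ex Mb and in DKO_CD Fb. The TKO_Ex interaction median was 0.11 after quantile normalization and 0.18 with the length trend removed. The cause of these shifts was not tested.

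Grouping by record exchanged the DKO groups, so the interaction medians became 0.17 for DKO_Ex and -0.018 for DKO_CD. It turned the sign of Rpl29 (0.62) in DKO_Ex Mb, of Rpl29 in DKO_CD Fb (-0.26) and Mb (-0.51), of the DKO_CD interactions of Rpl7a (0.027) and Rpsa (0.032) and of the DKO_Ex interactions of Rpl27a (0.046), Rps19 (0.22) and Rpl22l1 (0.32). Summing members with copies turned Rpl9 in WT (-0.064), over all groups (-0.065), in TKO_Ex Mb (0.032) and in the TKO_Ex interaction (0.058), Rpl28 over all groups (-0.054), Rps25 in TKO_Ex Mb (0.47), DKO_Ex Mb (0.13), DKO_CD Mb (0.28), TKO_Ex Fb (0.070) and DKO_CD Fb (0.031), Rpl21 in DKO_Ex Mb (-0.25), TKO_Ex Fb (-0.035), DKO_Ex Fb (-0.46) and DKO_CD Fb (-0.046), Rpl27a in DKO_CD Mb (0.090), Rpl29 in DKO_CD Fb (-0.031), and the interactions of Rps2 (TKO_Ex, 0.038), Rpsa (DKO_CD, 0.0008) and Rpl7a (DKO_CD, 0.11). The replicate block turned Rps15a in DKO_Ex Mb (-0.16) and Rpl21 in DKO_CD Fb (-0.034), rescaling turned Rpl7a in the DKO_CD interaction (0.021), and median-of-ratios scaling turned Rpl28 over all groups (-0.001). None of these members had passed the test. Leaving out 1 library gave ranges across 0 for Rpl28 over all groups (-0.036 to 0.055), Rpl29 in TKO_Ex Mb (-1.01 to 0.36), Rps15a in DKO_Ex Mb (-0.10 to 0.42), Rpl21 in TKO_Ex Fb (-0.060 to 0.53) and DKO_CD Fb (-0.0046 to 0.28), Rps24 in TKO_Ex Fb (-0.040 to 0.18), and for the interactions of Rpsa (TKO_Ex, -0.049 to 0.045; DKO_CD, -0.17 to 0.054), Rps2 (TKO_Ex, -0.20 to 0.072), Rpl7a (DKO_CD, -0.13 to 0.061) and Rpl9 (DKO_CD, -0.52 to 0.058).

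For equal replicate numbers, Fb and Mb deviations of log2(FPKM + 1) from the group mean of each gene correlated at 0.0076 to 0.14. By these deviations 14 of 16 libraries correlated best with their own number, so the numbers hint at pairs that no label states. Those of mutant and WT libraries share a number alone. The replicate block moved the count of calls beyond WT Mb against WT Fb in no other comparison by over 1.5 times. Estimated depth of 1968000 to 3264000 fragments limits members near 1 FPKM, and the number of libraries, 3 or 4 per mutant group, limits the mutant comparisons.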
